A study of Mus musculus with 8 samples.

Results

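Cyclins are regulatory proteins that bind and switch on cyclin-dependent kinases (CDKs), and the family divides into members that drive the cell cycle, members that act on RNA polymerase II, and members with other or less settled roles. The genes described here were chosen by symbol from the protein-coding genes of the RefSeq annotation on the mm10 genome build: Ccn followed by a letter and a number, or Ccnf, Ccnh, Ccno, Ccnk or Ccnc, or Cdk followed by a number alone, without Cdk9 and Ccnt1. The rule found 37 of 21887 protein-coding genes, 20 cyclins and 17 CDKs. By textbook role they were sorted into 15 cell-cycle members, 11 transcriptional members and 11 others. Of the 37 genes, 13 overlapped another protein-coding gene.

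The mark measured was H3K36me3, trimethylation of lysine 36 on histone H3, in mouse embryonic stem cells carrying a doxycycline-inducible knockdown of Setd2, the enzyme that deposits most of it. Setd2 travels with elongating RNA polymerase II, so the mark lies over the bodies of transcribed genes and usually becomes denser towards their 3' ends. Several of the transcriptional CDKs described here phosphorylate the tail of that polymerase. Embryonic stem cells grown without kinase inhibitors cycle fast, with a short G1 phase and high levels of many cyclins throughout the cycle. The cells used here grew with inhibitors, and their cell cycle and cyclin levels were not measured here.

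All cells carried the inducible knockdown, lacked feeders and grew as spheres in 2i medium, which contained the MEK inhibitor PD0325901 at 1 µM, the GSK3 inhibitor CHIR99021 at 3 µM and LIF at 1000 U/ml. Control cells (Dox -) were not given doxycycline. Knockdown cells (Dox +, Setd2 knockdown) received 1 µg/ml for 4 days. There were 8 libraries in 4 groups, with 2 replicates of the ChIP and 2 of its input for either condition. Peaks had been called on merged replicates, so 1 peak list stood for each condition, no spread between replicates could be given and no test between conditions was made. After removal of duplicates, 14.7% of tags in control and 23.9% in knockdown, the ChIP kept 36244210 and 29416169 tags. Depth and duplicates thus moved with the condition, and their part in the peak counts was not tested. Of 12 embryonic stem cell marker genes 11 held a control peak, Dppa5a being the exception. In the same list 1 of 8 fibroblast markers (Pdgfrb, covered over 5.01%) and 0 of 7 primitive endoderm markers held one. So did 2 of 5 neuroectoderm (Sox1 and Nes) and 2 of 5 mesoderm markers (Hand1 and Eomes). Of all protein-coding genes 41.2% held a control peak, so 2 of 5 is near the background.

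A gene counted as marked if it held the midpoint of 1 or more peaks within its annotated span, and its covered share was the percent of its length under peaks. In control cells 31 of the 37 genes were marked (83.8%, exact 95% interval 68.0 to 93.8), against a background of 41.2% of all protein-coding genes. After knockdown 5 of the 37 were marked (13.5%, 4.54 to 28.8), against 4.95% of all protein-coding genes. That count fell to 2 with a caller score of 100 or more and to 0 with an FDR of 1% or less. Among the knockdown peaks of the 5 genes the FDR rose with the score, so the FDR limit does not pick the stronger peaks. The shares of all protein-coding genes under these limits were not computed. All 5 had also been marked in control, so 16.1% (5.45 to 33.7) of the 31 were marked in both lists, beside 10.6% of all genes marked in control. In what follows, a gene that kept a peak is a gene marked in both lists, wherever its peaks lie. By position 4 of the 5 had a knockdown peak that overlapped a control peak, and Ccnf did not. The background share lies inside that interval. Intervals cover counting error only. Peaks covered over 50% of the length in 16 of the 37 (17% of all protein-coding genes) and over 80% in 9 (5.26% of all). In knockdown 3 of the 37 were covered over more than 10%, beside 1.71% of all. The median covered share over the 37 genes was 41.2% in control, and over all protein-coding genes it was 0. The median of the family was 17.2% with a caller score of 100 or more, 14.8% without genes that overlap another, and 0 with as many top-scoring control peaks as knockdown peaks. Covered sequence summed over the 37 genes went from 271183 bp in control to 13271 bp in knockdown. Summed over all protein-coding genes it went from 98455213 bp to 2724474 bp. The full lists held 30634 control and 3040 knockdown peaks.

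By class, the share of marked genes and the median covered share were as follows, without a test of the difference. The background is the 41.2% of all protein-coding genes that were marked in control. Of the cell-cycle members 12 of 15 (80%, 51.9 to 95.7) were marked, with a median covered share of 57.2% over all 15. Every one of the 11 transcriptional members was marked (lower bound 71.5%), and their median covered share was 15.6%. Covered base pairs summed over summed length gave the other order, 15.4% for cell-cycle and 25.6% for transcriptional members. Transcriptional members were longer, with a median of 32222 bp against 13866 bp. Gene length and class cannot be told apart here, and without genes that overlap another the order of the medians turned, to 13.9% for 9 cell-cycle and 15.6% for 7 transcriptional members. Of the 11 other members 8 were marked, with a median share of 37.5%. After knockdown 3 of 12 marked cell-cycle members (25%, 5.49 to 57.2), 1 of 11 transcriptional members (9.09%, 0.230 to 41.3) and 1 of 8 others (12.5%, 0.316 to 52.7) were marked in both lists. The 3 cell-cycle genes include Ccnf, whose peaks did not overlap. Of all genes marked in control 10.6% were marked in both lists, a share that lies inside each of these intervals. The intervals overlap widely, and a difference between the classes in keeping a peak was not tested.

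**Figure D1:**
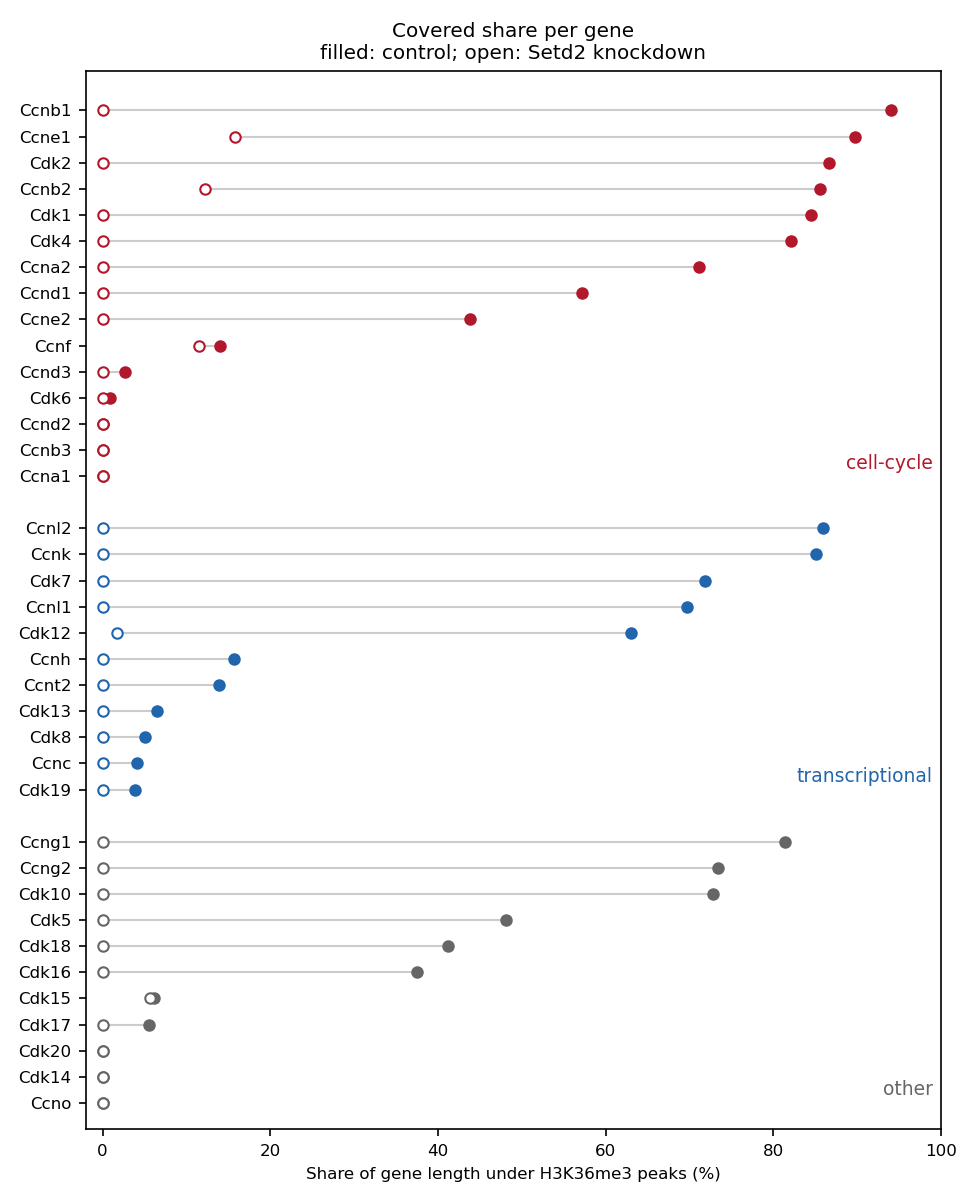
Share of gene length under H3K36me3 peaks (percent, horizontal axis) for each of the 37 genes, in control (filled points) and Setd2 knockdown (open points), grouped by class; each point is 1 merged peak list and there is no error bar. Control shares reach from 0 to 94.1%, and no knockdown share is above 15.8%.

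Among cell-cycle genes the highest control shares were those of Ccnb1, Ccne1 and Cdk2. Ccnb1, the cyclin that brings Cdk1 into mitosis (chromosome 13, 100778739 to 100786486), had 94.1% of its length under 1 control peak and no knockdown peak. Its share was as high as or higher than that of 99.3% of all protein-coding genes. Ccne1, the G1/S cyclin that activates Cdk2 (chromosome 7, 38097984 to 38107490), had 89.8% in control and 15.8% in knockdown. Ccnb2, the second B-type mitotic cyclin (chromosome 9, 70407689 to 70421554), had 85.6% and 12.2%. Ccna2, the cyclin of S and G2 phase, went from 71.1% to 0, with 10.6% of its length shared with Exosc9.

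The 4 cell-cycle kinases were all marked in control, 3 of them over most of their length. Cdk1, the mitotic kinase (chromosome 10, 69335146 to 69352912), was covered over 84.5%, Cdk2, the kinase of the G1/S transition, over 86.6%, and Cdk4, the partner of D-type cyclins, over 82.1%. None of the 3 had a base pair under a knockdown peak. Cdk2 lies entirely inside the annotated span of Pmel, so its peak cannot be given to 1 of the 2 genes from position alone. Cdk6, the other D-cyclin kinase, is 190005 bp long and had 1 control peak of 1748 bp, 0.920% of its length.

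The D-type cyclins, which carry growth-factor signals to Cdk4 and Cdk6, were marked unevenly. Ccnd1 had a control peak over 57.2% of its length, Ccnd3 over 2.69%, and Ccnd2 (27027 bp) had none. Ccnd3 spans 94639 bp from its outermost start, and the RefSeq promoter table lists another start 6223 bp from its 3' end. Measured from that start, 40.9% of the gene was covered. Ccne2, the second E-type cyclin, had 43.9% under 3 peaks in control, with 39.2% of the gene shared with Ints8. Ccna1, the germline A-type cyclin, and Ccnb3, a meiotic B-type cyclin, had no base pair under a peak in either list. Ccnf, a cyclin-like F-box protein that directs SCF ubiquitin ligase to its substrates, had 13.9% in control and 11.5% in knockdown.

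Of the A-type cyclins Ccna2 was thus marked and Ccna1 not, of the B-type Ccnb1 and Ccnb2 but not Ccnb3, of the D-type Ccnd1 and Ccnd3 but not Ccnd2, and of the E-type both. These are values of 1 merged list, and peak calls are not transcript levels.

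Sequences just upstream of the transcript start are shown for Ccne1, Ccnb1, Ccnb2 and Cdk1, the 4 members with the top caller scores in control. Those of 2 unmarked relatives, Ccna1 and Ccnb3, are shown with them. No peak reached this stretch in these genes, nor at any other listed start of the family. The genes shown were chosen after their values had been seen. Each run is the 250 bases before the start, 5' to 3' on the minus strand, from RefSeq (GRCm38.p6), at chr7:38107491-38107740, chr13:100786487-100786736, chr9:70421555-70421804, chr10:69352913-69353162, chr3:55055056-55055305 and chrX:7041620-7041869 in that order. Capitals mark the CCAAT box bound by NF-Y (CCAAT or ATTGG), the cell cycle homology region called CHR (TTTGAA or TTCAAA) and E2F words (TTTCCCGC, TTTCGCGC, TTTGCCGC, TTTGGCGC and their reverse complements). No marked words overlap.
Ccne1: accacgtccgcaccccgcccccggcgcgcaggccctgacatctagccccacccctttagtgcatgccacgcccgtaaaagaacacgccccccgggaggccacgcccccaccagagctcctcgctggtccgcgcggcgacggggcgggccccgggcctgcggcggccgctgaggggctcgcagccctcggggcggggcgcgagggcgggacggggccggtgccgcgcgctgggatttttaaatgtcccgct
Ccnb1: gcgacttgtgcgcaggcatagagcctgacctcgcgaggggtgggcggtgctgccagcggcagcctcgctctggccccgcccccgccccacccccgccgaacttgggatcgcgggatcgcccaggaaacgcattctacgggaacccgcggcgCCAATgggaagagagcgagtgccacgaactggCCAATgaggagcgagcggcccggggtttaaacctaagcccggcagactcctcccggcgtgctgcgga
Ccnb2: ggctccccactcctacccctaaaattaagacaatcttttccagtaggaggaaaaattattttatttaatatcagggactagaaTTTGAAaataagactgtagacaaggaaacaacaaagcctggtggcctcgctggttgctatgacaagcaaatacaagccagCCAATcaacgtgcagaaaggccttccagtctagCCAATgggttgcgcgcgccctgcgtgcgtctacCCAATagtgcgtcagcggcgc
Cdk1: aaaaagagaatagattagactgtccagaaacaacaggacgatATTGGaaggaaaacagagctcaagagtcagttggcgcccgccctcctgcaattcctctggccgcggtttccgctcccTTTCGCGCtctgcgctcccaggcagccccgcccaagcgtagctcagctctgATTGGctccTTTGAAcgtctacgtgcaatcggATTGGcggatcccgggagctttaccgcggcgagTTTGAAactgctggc
Ccna1: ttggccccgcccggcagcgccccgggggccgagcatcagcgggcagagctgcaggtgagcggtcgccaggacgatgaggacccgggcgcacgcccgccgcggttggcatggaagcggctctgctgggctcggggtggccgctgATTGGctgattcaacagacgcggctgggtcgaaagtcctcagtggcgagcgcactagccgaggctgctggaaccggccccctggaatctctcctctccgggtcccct
Ccnb3: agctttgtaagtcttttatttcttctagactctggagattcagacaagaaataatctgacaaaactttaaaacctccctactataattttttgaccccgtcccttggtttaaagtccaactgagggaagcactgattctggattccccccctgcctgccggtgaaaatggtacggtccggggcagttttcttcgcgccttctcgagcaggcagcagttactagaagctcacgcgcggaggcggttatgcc

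No capitals appear in Ccne1 or Ccnb3. Ccnb1 held 2 CCAAT boxes, Ccnb2 held 3 with 1 CHR word, Cdk1 held 3 with 2 CHR words and 1 E2F word, and Ccna1 held 1 CCAAT box. The promoter table matched 29 of the 37 genes with 31 starts. It held no entry for Ccna2, Ccnd1, Ccnd2, Ccne2, Ccnh, Cdk5, Cdk17 and Cdk19. A CCAAT box was found upstream of 7 of 12 cell-cycle starts, 4 of 9 transcriptional starts and 4 of 10 others, and upstream of 35.4% of 21263 starts of protein-coding genes. CHR words were found at 3 of 12, 0 of 9 and 1 of 10, against 14.5%, and E2F words at 2 of 12, 0 of 9 and 0 of 10, against 2.35%. A word in this window is a match of letters and not a measured site.

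None of the 31 starts lay under a peak in either list. Of the 26 starts that belong to marked members 0 did in control, near the 2.17% of 9369 starts of all marked genes, and of all 21263 starts 1.32% did. In the printed genes the first covered base lay 0.97 kb inside Ccne1, 0.461 kb inside Ccnb1, 1.90 kb inside Ccnb2 and 1.86 kb inside Cdk1, and from there peaks ran past the 3' end of the gene, with a gap between 2 peaks in Ccnb2 and in Cdk1.

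Transcriptional members fell into a broadly covered set and a set with a few narrow peaks. Ccnl2 and Ccnl1, the L-type cyclins that work with Cdk11 in transcription and splicing, had 86.0% and 69.7% of their length covered in control and nothing in knockdown. Measured from the start in the promoter table, these shares were 93.0% and 91.1%. Ccnk, the cyclin of Cdk12 and Cdk13 (chromosome 12, 108179308 to 108203359), had 85.1% under 2 control peaks, the larger of them 17767 bp, and no knockdown peak. Cdk7, the kinase of TFIIH that also activates the cell-cycle CDKs, had 71.8% in control and 0 in knockdown.

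Cdk12, which phosphorylates the polymerase tail during elongation (chromosome 11, 98202433 to 98281101), carried 10 control peaks over 63.0% of its 78669 bp. It kept 1 knockdown peak of 1391 bp, 1.77% of the gene. Its paralog Cdk13, of 93537 bp and with the same cyclin partner, had 6.45% under 2 control peaks and none in knockdown. The remaining transcriptional members had between 3.83% and 15.6% in control and none in knockdown. These were Ccnh, the cyclin of Cdk7 (15.6%), Ccnt2, a cyclin of P-TEFb (13.8%), and the parts of the Mediator kinase module, Cdk8 (5.10%), Ccnc (4.12%) and Cdk19 (3.83%). Partners such as Cdk7 and Ccnh, and paralogs such as Cdk12 and Cdk13, thus had far apart shares. Overlap with another protein-coding gene took 9.33% of Cdk19, 7.89% of Ccnc and, elsewhere in the family, 8.26% of Ccnd1 and 4.08% of Cdk17. In Cdk7, Ccnd3, Ccnk, Cdk4 and Cdk10 it took less than 1%.

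The other members ranged as widely. The atypical cyclins Ccng1 and Ccng2, known as stress-responsive genes, had 81.4% and 73.5% in control, and Cdk10 had 72.8%. Cdk5, best known from neurons, had 48.1% in control, but 59.7% of the gene is shared with Abcb8 and Asic3. Cdk18 had 41.2%, Cdk16 37.5% and Cdk17 5.54%, all 3 being PCTAIRE-type kinases. Cdk14, which spans 576868 bp, Cdk20 and the multiciliation cyclin Ccno had no base pair under a peak in either list. Cdk15, a PFTAIRE-type kinase, had 6.10% in control and 5.68% in knockdown, so its coverage was nearly the same in both lists.

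The peaks lay towards the 3' ends. Direction of transcription was known for 24 marked members, and in 21 of them the 3' side of the gene midpoint was covered more than the 5' side, a share of 87.5% beside 78.2% of 7153 marked genes of at least 3 kb. The exceptions were Ccnf, Cdk12 and Ccnc. Averaged over the 24 members, control coverage was 9.80% in the first 10% of the gene and 65.6% in the last 10%, and over all marked genes it was 8.18% and 54.7%. The last annotated base was covered in 13 of 24 members and 47.6% of 7266 marked genes, and the first base in 1 of 24 and 1.82%. The 1 covered first base was that of Ccnl2, whose listed start lies further inside the gene. The 13 control peaks that ran past a 3' end did so by 188 to 3129 bp, the longest being at Cdk7. That Cdk7 peak lay almost wholly beyond the gene, with 3129 of its 3133 bp past the end. At Cdk1 2287 of 2505 bp lay past it, and both peaks had their midpoint outside the gene. Both genes are among the 13 with a covered last base.

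**Figure D2:**
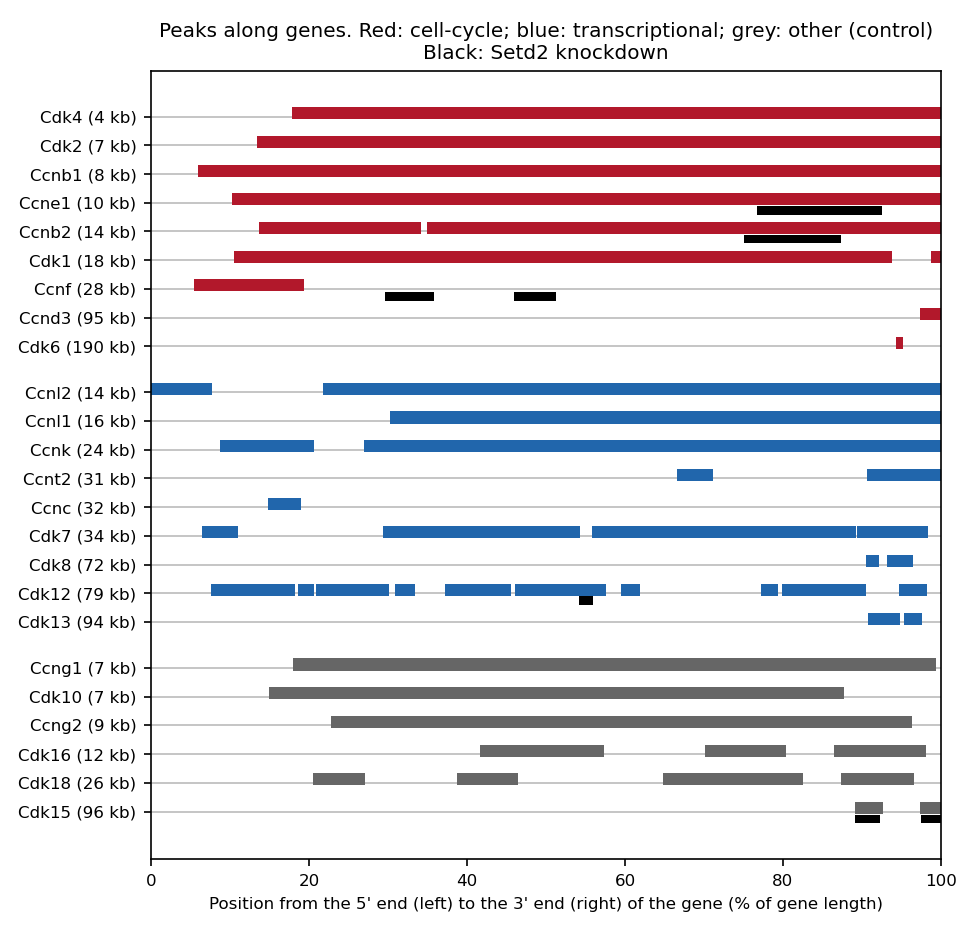
Position of control peaks (coloured) and Setd2 knockdown peaks (black) along the 24 marked genes with known direction, from the 5' end (0%) to the 3' end (100%), with gene length beside each name. Short cell-cycle genes are covered from shortly after the start to the 3' end, whereas Cdk6, Cdk8, Cdk13, Ccnd3 and Cdk15 carry peaks near the 3' end alone. Ccnd3 is drawn from its outermost start.

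Among the long members many were covered at the 3' end alone. Of 9 marked members over 30 kb with known direction, Cdk6, Cdk8, Cdk13 and Ccnd3 had all of their control coverage in the last 10% of the gene. That is 44.4% of the 9, and 5.11% of all 3170 such genes. Cdk15 had 85.6% and Ccnt2 67.6% of their covered base pairs there. Among genes over 30 kb covered over 20% of their length or less, 4 of 7 members and 9.49% of 1707 genes had all coverage there. Ccnd3 belongs to these long genes only by its outermost start, since another listed start lies 6223 bp from its 3' end. Cdk12 and Cdk7 carried peaks in several stretches along the gene, with 6.40% and 11.6% of their covered base pairs in the last 10%, and the small peak of Ccnc lay between 14.8% and 18.9% of the way along the gene. With 9 genes these counts describe the family and were not tested.

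The covered share fell with gene length across the family. Over the 31 marked members Spearman's rho between length and control share was -0.79, and over all 9016 marked genes it was -0.61, as a description without a test, since all points share the same library and peaks have a minimum size. Up to 10 kb, 9 of 11 members were marked, with a median share of 81.4% among the marked, compared with 21.3% of all protein-coding genes of that length marked and a median of 63.3%. From 10 to 30 kb these values were 11 of 13 and 48.1%, compared with 51.7% and 49.6%. Above 30 kb they were 11 of 13 and 5.54%, compared with 53.2% and 16.3%. The length bands hold different classes: the shortest held 6 cell-cycle and no transcriptional members, and the longest 3 cell-cycle and 7 transcriptional. Within the middle band the marked cell-cycle members had a median of 64.2% (4 genes) and the transcriptional ones 77.4% (4 genes). Above 30 kb they had 1.81% (2 genes) and 6.45% (7 genes). In both bands that hold both classes the order was opposite to that of the class medians over all lengths.

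**Figure D3:**
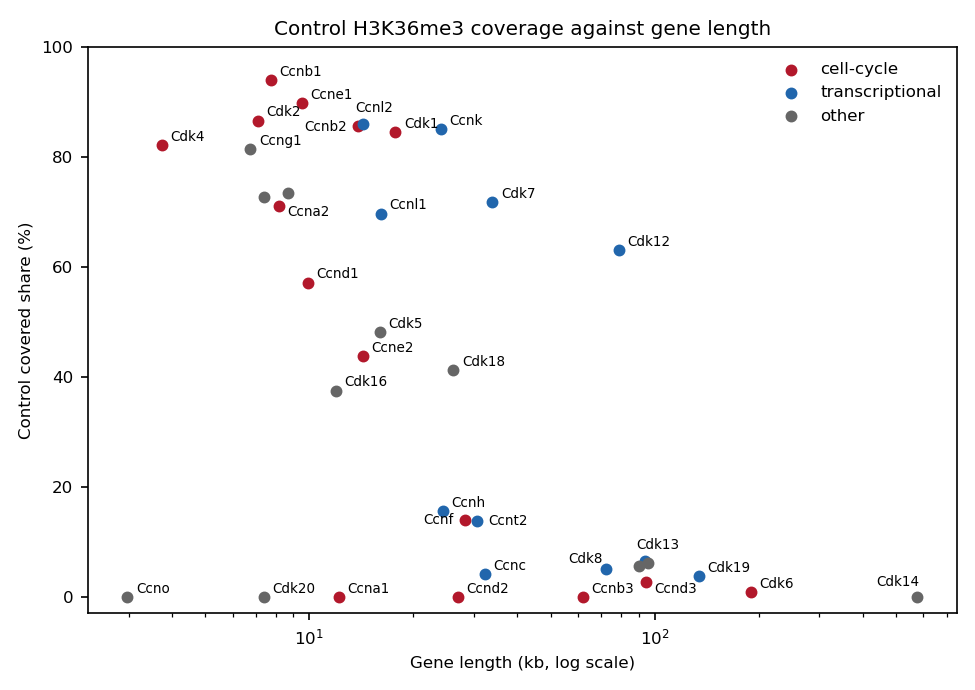
Control covered share (percent, vertical axis) against gene length (kb, log scale) for the 37 genes, coloured by class. Members above 80% are all shorter than 30 kb, and above 30 kb Cdk7 and Cdk12 are the members covered over more than 20%.

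Control peaks over these genes were of ordinary density and above the median in caller score. The 64 control peaks touching the 37 genes had a median length of 2908 bp, against 2451 bp for all control peaks. Their median tag density was 2.53 times the genome mean of kept tags, against 2.38 for all. The authors' caller score, minus 10 times log10 of the p-value, had a median of 168 against 137. The highest score, 1451, belonged to the 10398 bp peak of Ccne1, as high as or higher than 99.6% of control peaks, followed by Ccnb1 (1194), Ccnb2 (1047) and Cdk1 (966). Of the 64, 5 (7.81%) were overlapped by a knockdown peak by at least 1 bp, and 6.52% of all control peaks were.

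The 5 genes with a knockdown peak showed 3 arrangements. In Ccnb2, Ccne1 and Cdk12 a short knockdown peak lay inside a much longer control peak. The Ccnb2 peak (chromosome 9, 70409445 to 70411141) held 55 tags over 1697 bp, 2.06 times the genome mean (95% Poisson interval 1.55 to 2.68), within a control peak of 10510 bp at 3.49 times (3.24 to 3.76). The Ccne1 peak (chromosome 7, 38098695 to 38100196) held 57 tags at 2.41 times (1.83 to 3.13), within a control peak at 3.59 times (3.34 to 3.86). Both lay between 75.1% and 92.5% of the way to the 3' end. In these 2 genes the intervals of the densities did not meet. In Cdk12 the knockdown peak held 52 tags at 2.38 times (1.77 to 3.12) and the control peak around it had 3.00 times (2.75 to 3.27), so that the intervals met. Each density is that of a whole peak as called in its own list, so unequal stretches are set side by side. It is relative to the genome mean of its own condition, without an external reference, and the intervals hold no replicate spread. A change between conditions was not tested.

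In Cdk15 the knockdown peaks were nearly the control peaks. Of its 2 control peaks 91.3% and 90.2% of the length was shared with a knockdown peak. Their densities were 2.77 (2.38 to 3.21) and 2.84 (2.40 to 3.33) times the genome mean in control and 2.84 (2.38 to 3.36) and 2.87 (2.36 to 3.45) in knockdown. As each is relative to the mean of its own condition, similar densities do not show equal amounts of the mark. The peak at the 3' end also lies over Gm51625, a lncRNA gene. Besides Cdk15, Ccnf alone of the 37 genes had a knockdown share close to its control share, 11.5% beside 13.9%.

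In Ccnf the lists marked different stretches. The control peak of 3930 bp lay 1.54 to 5.47 kb from the 5' end, at 3.09 times the genome mean (2.70 to 3.51). The knockdown peaks lay 8.36 to 10.1 kb and 13.0 to 14.5 kb from it, at 2.65 (2.08 to 3.34) and 2.28 (1.71 to 2.98) times, and neither shared a base pair with a control peak. Control tags outside called peaks were not analysed here, so whether the control signal over these stretches was lower was not tested.

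**Figure D4:**
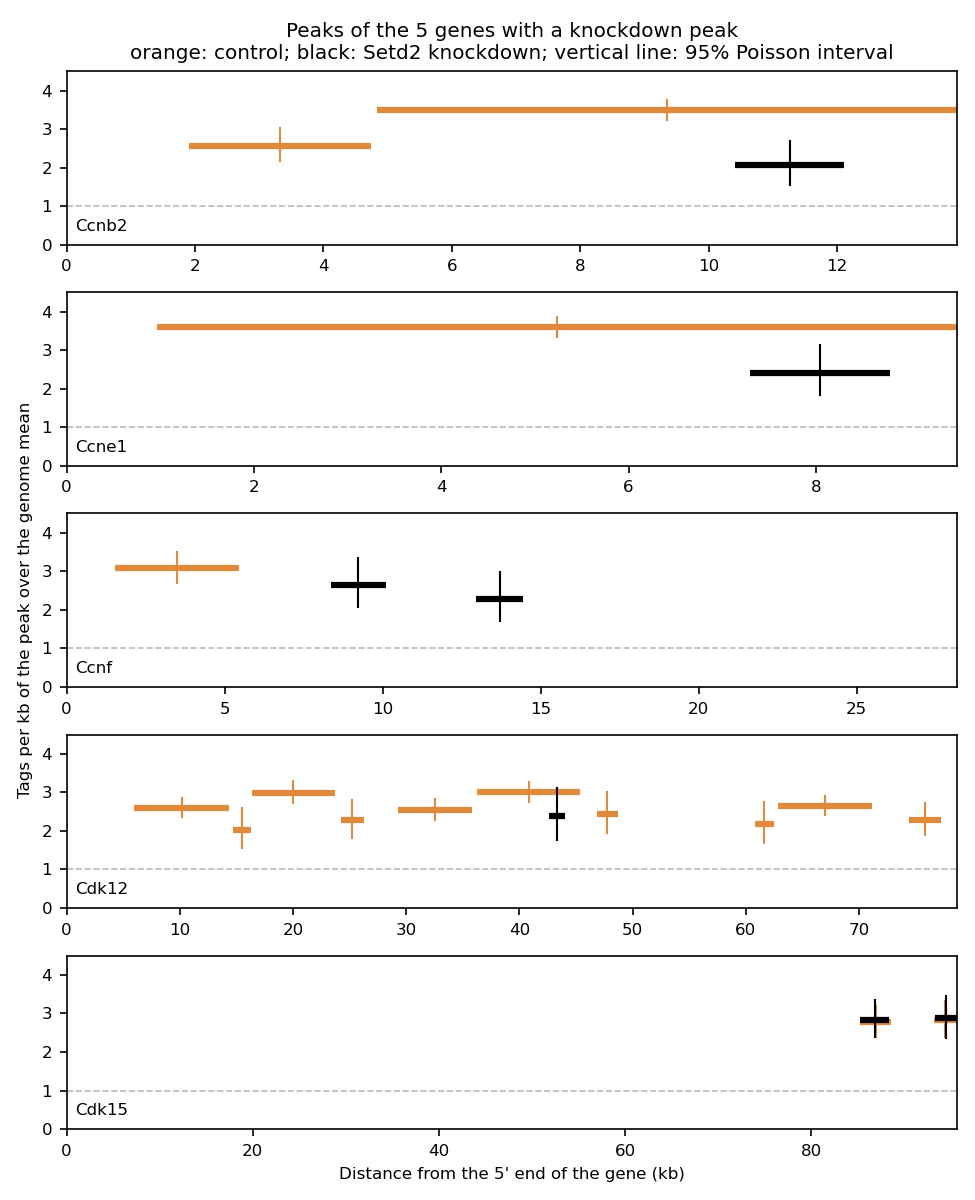
Peaks of the 5 genes with a knockdown peak, placed by distance from the 5' end of the gene (kb) and by tags per kb relative to the genome mean (vertical axis, dashed line at 1), in control (orange) and Setd2 knockdown (black); vertical lines are 95% Poisson intervals of the tag count. The Cdk15 peaks coincide in both lists, whereas the Ccnf knockdown peaks lie outside its control peak.

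Whether a gene kept a peak went with its control score in the genome as a whole. Of genes whose best control peak scored at least 900, 31.1% of 787 kept a peak, and of those whose best scored under 200, 6.27% of 3079 did. Among the 37 genes these counts were 2 of 4 (Ccne1 and Ccnb2, not Ccnb1 or Cdk1) and 0 of 10. With a best score from 200 to below 500, 2 of 9 members kept a peak (Cdk15 and Ccnf), beside 7.97% of 3099 genes. From 500 to below 900 it was 1 of 8 (Cdk12), beside 13.2% of 2051 genes. The members thus did not rise steadily with the score, and a trend among them was not tested. By covered share, 2 of 9 members above 80% kept a peak, beside 22.6% of 1085 such genes. Up to 10% it was 1 of 8 members beside 12.4% of all such genes. From 10 to 50% it was 1 of 7 beside 7.29%, and from 50 to 80% 1 of 7 beside 9.04%. The share kept thus did not rise steadily with coverage.

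Regulators of the CDKs were read from 5 lists with 88 genes. Of these, 68 were marked in control and 9 of the 68 (13.2%, 6.23 to 23.6) kept a peak, near the 10.6% of all marked genes. The share of all protein-coding genes marked in control was 41.2%. CDK inhibitors were marked in 4 of 8 cases, near that background, and 0 of the 4 kept a peak, which with 4 genes cannot be told from 10.6%. Cdkn1b, which encodes p27, had 74.1% and Cdkn1a, which encodes p21, 68.6% in control. Cdkn1c, Cdkn2b, Cdkn2c and Cdkn2d had no base pair under a peak.

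Activators and opposing kinases were marked in 12 of 13 cases (background 41.2%). Of the 12, 2 kept a peak (16.7%, 2.09 to 48.4), an interval that holds the background of 10.6%. Cdc25a, the phosphatase that activates Cdk2 and Cdk1, went from 93.6% to 11.9%, Aurka, a mitotic kinase, from 79.7% to 10.7%, and Plk1, another mitotic kinase, from 91.9% to 0. The Rb and E2F family was marked in 16 of 17 cases (background 41.2%). Here 3 of the 16 kept a peak (18.8%, 4.05 to 45.6), and 10.6% lies inside that interval too. Here E2f4, a repressive E2F, had 87.2% and none after knockdown, Mybl2, an activator of mitotic genes, went from 85.8% to 5.28% and Foxm1, another, from 70.3% to 9.38%. Rb1 had no base pair under a peak.

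Ubiquitin ligase regulators of cyclin destruction were marked in 21 of 24 cases (background 41.2%). Of the 21, 3 kept a peak (14.3%, 3.05 to 36.3), an interval that holds the background of 10.6%. Ube2c, the ubiquitin-conjugating enzyme of the anaphase-promoting complex, went from 86.7% to 52.0%, the highest knockdown share of the 88 genes. Anapc2, a core subunit of that complex, had 94.4% and Ube2s, its chain-elongating enzyme, 90.9% although no peak midpoint lay in it, both without knockdown coverage, and Cdc23, another subunit, went from 89.2% to 8.29%. Other cyclins, CDKs and partners were marked in 15 of 26 cases (background 41.2%) and 1 of the 15 kept a peak (background 10.6%). This was Cdk5rap1, which went from 10.9% to 2.40%. Cdk11b, the partner of the L-type cyclins, had 89.1% and Cdk5rap3 79.0%, neither with knockdown coverage. Ccny had no base pair under a control peak and 1.11% under a knockdown peak.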

How the data were processed

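Libraries of H3K36me3 ChIP and of input were grouped by title, and whether replicates were separate cultures is not given in the labels. Bowtie 1.1.2, FastQC 0.11.5 and the mm10 build are named in the submitters' processing notes. Peak calling was done by the authors with MACS 1.4.2, per the file headers, on merged replicates against merged inputs, with a p cutoff of 1e-05, 1 tag kept per position, the larger data set scaled to the smaller, and local background over 1000 and 10000 bp. The deposited tables give per peak a count of tags, not normalized, a score (minus 10 times log10 of the p-value), a fold (the ratio over local background that the caller computed), and an FDR in percent. The deposited BED files hold the peaks with an FDR of 5% or less.

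Genes came from RefSeq GRCm38.p6 (mm10). Direction came from a promoter table reaching from 250 bases before to 50 after each start, and genes not in it were left out wherever direction was needed. Tag density was divided by kept tags per base of the caller's effective genome. Position profiles used 10 bins and genes of at least 3 kb. Shares have exact Clopper-Pearson 95% intervals and tag counts exact Poisson ones, for counting error only. The covering functions were tested on simulated peaks. Python 3.11.15, pandas 2.3.3, numpy 2.4.6, SciPy 1.17.1 and matplotlib 3.10.9 were used. Members, classes and lists were chosen with earlier results of these data known. Named in full were members with knockdown coverage, the 3 most covered of each class, cell-cycle and transcriptional members without coverage, and from each regulator list the 2 most covered in control and in knockdown. The rule for sequences named promoters of members with a peak over the start, and none had one. Protein sequences were not used here.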

Additional observations from a re-analysis of the deposited data

How the results depend on the processing

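No paired analysis was possible because each peak list was called on merged replicates, and for the same reason no replicate could be left out. With only as many top-scoring control peaks as there are knockdown peaks, 11 members, 7 cell-cycle and 3 transcriptional ones were marked in control, and the 3 median shares (all members, cell-cycle, transcriptional) were 0. Shares of all protein-coding genes under this and the following alternatives were not computed. Without genes that overlap another protein-coding gene, 18 of 24 members, 6 of 9 cell-cycle and 7 of 7 transcriptional ones were marked in control. With all genes these counts were 31 of 37, 12 of 15 and 11 of 11. For all members and for cell-cycle members the marked share was thus lower too. Genes that share only a few base pairs with a neighbour, such as Cdk4 and Cdk10, are also left out here. With a caller score of 100 or more, 2 members (Ccnf and Cdk15) had a knockdown peak, 1 cell-cycle and 0 transcriptional, and the median control share of members was 17.2%. With an FDR of 1% or less none had, the counts being 0, 0 and 0. Among the knockdown peaks of members the FDR rose with the score, from 1.03% at 60.5 (Cdk12) to 3.64% at 251 (Cdk15). An FDR limit thus removed the highest-scoring of these peaks too and does not test how strong they were. Under that limit 30 members were marked in control, without Ccne1, whose peak has an FDR of 1.82% in the authors' table although its score is the highest of the family. Requiring 10% of the gene to be covered left 3 members with knockdown marking, 0 of them transcriptional, and 7 transcriptional members marked in control. The other alternatives, an FDR of 5% or less, any shared base pair, genes extended by 1 kb and classes without Ccnh and Cdk7, kept each count within 1.5 times. The median share of members was 14.8% without overlapping genes, and that of cell-cycle members 13.9%, below the 15.6% of transcriptional ones, so the order of the class medians turned. A gene without a peak may carry signal below the caller's threshold.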
